A study of Mus musculus with 5 samples.

Results

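The core genes of the circadian clock were described in whole mammary glands of Nfib-null and wild-type (WT) mice. They are the 10 genes Arntl, Clock and Npas2, the activator arm, and Per1, Per2, Per3, Cry1, Cry2, Nr1d1 and Nr1d2, the repressor arm. They were found by gene symbol in a table of 22609 genes, and all 10 were present and passed the minimum mean of 1 RPKM, a read count divided by gene length and library depth, as did 12511 genes in all. The set was chosen by the measured difference between these groups, whose values were known, so its differences are given as a description without a test. RNA sequencing covered 3 Nfib-null and 2 WT libraries from glands of outbred mice, freed of lymph nodes and taken on the day of parturition, up to 12 hours after delivery. The Nfib-null group is described by its genotype only: the labels name no Cre driver and no cell type of deletion, and they do not explain the heading NfibFF-WC of the column taken for it. They give no clock hour of collection. Since each gene has 1 mean per group, a difference of genotype and a difference in the time of day at collection cannot be told apart in these data. The series asks how nuclear factor I/B (NFIB) and STAT5 together govern gene expression in the gland at the end of pregnancy.

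The circadian clock is a feedback loop of transcription. The protein ARNTL (also called BMAL1) pairs with CLOCK or its relative NPAS2, and the pairs bind E-boxes and activate the Per, Cry and Nr1d genes, together with output genes such as Dbp. PER and CRY proteins then inhibit the activators, and the nuclear receptors NR1D1 and NR1D2 (REV-ERB alpha and beta) repress Arntl, competing with ROR receptors for the same DNA elements. In mouse organs followed around the day, the transcripts of Arntl and Npas2 are known to peak at roughly the opposite time from those of Dbp, Nr1d1 and Per3, and Cry1 is known to peak later than the Per genes. The mammary gland is one of the peripheral tissues in which these genes cycle.

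Promoter windows of 4 members are shown because they hold letters of DNA elements through which the loop is known to run. These are the E-box CACGTG and its variant CACGTT, bound by ARNTL pairs, and the D-box TTATGTAA, bound by DBP, TEF, HLF and NFIL3. The last is AGGTCA, the core of the element of ROR and REV-ERB receptors, searched without its flanking bases. Each window runs 5′ to 3′ on the strand of the gene over 300 bases, 250 before and 50 after an annotated start site. Start sites came from RefSeq on GRCm38.p6, and capitals mark exact matches on either strand to these 4 motifs.
Per3, chr4:151044616-151044915, minus strand: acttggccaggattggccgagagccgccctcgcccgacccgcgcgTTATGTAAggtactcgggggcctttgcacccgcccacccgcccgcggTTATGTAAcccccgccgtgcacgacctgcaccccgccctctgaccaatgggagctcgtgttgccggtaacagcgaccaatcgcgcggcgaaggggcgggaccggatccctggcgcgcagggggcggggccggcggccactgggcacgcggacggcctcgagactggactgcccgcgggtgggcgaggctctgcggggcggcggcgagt
Cry1, chr10:85185005-85185304, minus strand: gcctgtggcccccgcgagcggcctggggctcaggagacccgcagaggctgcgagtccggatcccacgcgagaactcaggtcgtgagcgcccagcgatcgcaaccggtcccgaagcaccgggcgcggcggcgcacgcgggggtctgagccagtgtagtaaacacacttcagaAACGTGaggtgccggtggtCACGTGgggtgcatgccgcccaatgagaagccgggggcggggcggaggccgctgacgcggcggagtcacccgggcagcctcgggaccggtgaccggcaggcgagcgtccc
Per1, the upstream of its windows, chr11:69098699-69098998, plus strand: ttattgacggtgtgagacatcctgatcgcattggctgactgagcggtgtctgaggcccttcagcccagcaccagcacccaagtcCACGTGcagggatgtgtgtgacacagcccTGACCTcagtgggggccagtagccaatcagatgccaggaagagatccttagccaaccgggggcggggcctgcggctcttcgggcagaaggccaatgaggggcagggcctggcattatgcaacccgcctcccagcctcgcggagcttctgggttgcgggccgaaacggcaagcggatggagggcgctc
Arntl, the downstream of its windows, chr7:113207261-113207560, plus strand: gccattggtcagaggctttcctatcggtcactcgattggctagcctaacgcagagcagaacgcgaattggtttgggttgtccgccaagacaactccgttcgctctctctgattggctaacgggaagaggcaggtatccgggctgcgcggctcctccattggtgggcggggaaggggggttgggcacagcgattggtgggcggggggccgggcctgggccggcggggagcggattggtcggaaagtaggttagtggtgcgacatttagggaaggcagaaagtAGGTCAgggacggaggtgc

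The Per3 window held 2 D-boxes, which began 205 and 158 bases before the start site. A D-box stood in 0.938% of the 32851 promoter windows of all genes. The Cry1 window held the variant CACGTT (read as AACGTG on the strand shown) 79 bases and the E-box 60 bases before the start site. The Per1 window held an E-box at 166 and AGGTCA (read as TGACCT) at 137 bases before it. In Arntl the letters AGGTCA began 32 bases after the start site. Windows were found for 9 of the 10 members, 13 in all. Of these 13 windows 2 held an E-box (7.15% of all windows), 3 the variant CACGTT (4.68%), 1 a D-box and 4 AGGTCA (16.3%). For each motif these windows belonged to as many members. The other members with CACGTT were Cry2 and Nr1d1, and the other members with AGGTCA were Clock and Nr1d2. None of the 13 held the palindrome of NFI factors, TTGGC and GCCAA spaced by 5 bases, which 0.0365% of all windows held. TTGGCA, which holds only the TTGGC part of this palindrome, stood in the Npas2 window and in 14.1% of all windows. The STAT5 motif TTCNNNGAA stood in the downstream window of Per1 and in 8.3% of all windows. A match describes letters in these windows only.

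**Figure D1:**
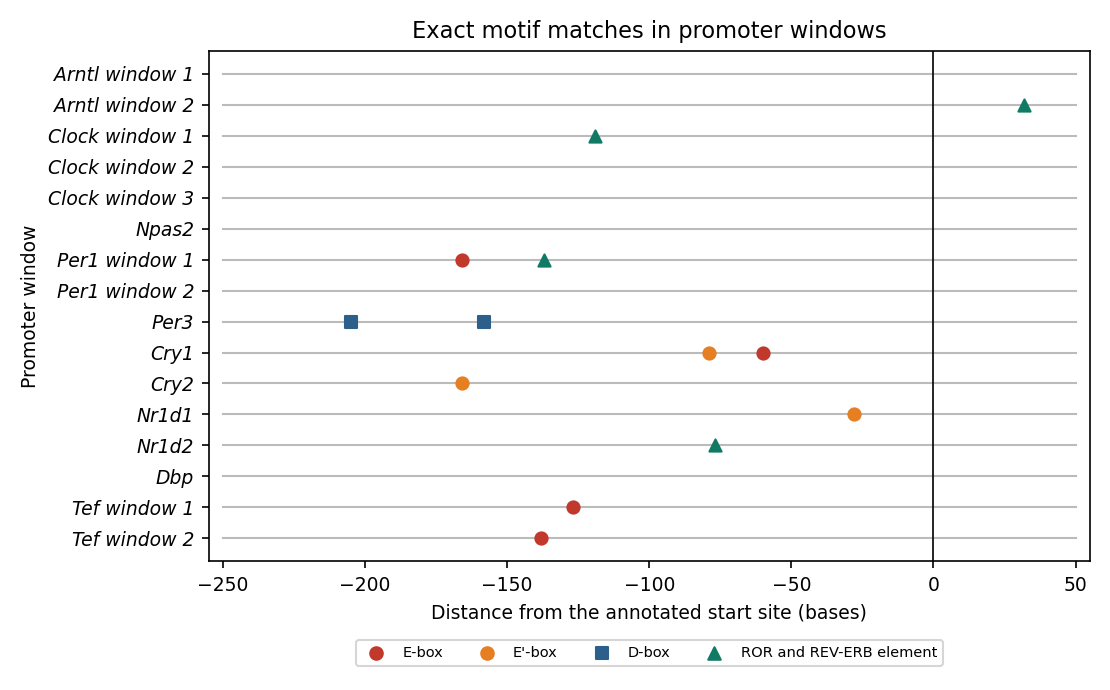
Positions of exact matches to 4 clock motifs in the promoter windows of 9 core clock genes, Dbp and Tef, with the distance in bases from the annotated start site on the x axis and 1 line per window on the y axis. The 2 D-boxes lie in Per3, the E-boxes in Per1, Cry1 and both Tef windows, and the Arntl match lies after the start site.

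The table holds group means, so no value of a single library, no standard deviation and no p-value can be given. The column of the WT group carries the name of its libraries, and the column called Nfib-null here, headed NfibFF-WC, was assigned by elimination. In that column 84.4% of the 12205 values with 10 decimals ended in the recurring decimals of a division by 3, the number of its libraries, against 0% of only 67 such values in the WT column. Nfib itself stood at 55.3 RPKM in Nfib-null glands and 33.7 RPKM in WT glands. Reads from exons outside a deletion, or from cells without one, can enter this value, and it is no check of the assignment. RPKM values below are as deposited, and log2 differences are Nfib-null minus WT after the columns were scaled to a median ratio of 1, on log2(scaled RPKM + 1), a scale that understates the change of low genes. Differences of 2-fold or more are called higher or lower. By this rule 6.95% of the 12511 genes were higher and 5.97% lower, so 53.8% of the calls were higher. That share was 83.0% with values as deposited, 68.3% with equal sums without the 20 most abundant genes and 6.65% with scaling to luminal epithelial genes, and these scalings moved the median of all genes by 0.35, 0.15 and −0.61. Every direction given below is relative to the median of all genes, and RPKM as deposited can point the other way for small differences.

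In the Nfib-null column the activator genes stood lower and most repressor genes higher than in the WT column. All 3 activators had negative log2 differences, with a median of −1.32, and 6 of the 7 repressors had positive ones, with a median of 0.86, where the median of all genes was 0.00. Cry1 was the repressor that stood with the activators. By the 2-fold limit 3 members were higher, 3 lower and 4 within it, beside 6.95% higher and 5.97% lower among all genes. The median size of the difference, regardless of sign, was 1.08 over the 10 members and 0.38 over all genes kept. The counts and medians of the members are set by how the genes were chosen.

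**Figure D2:**
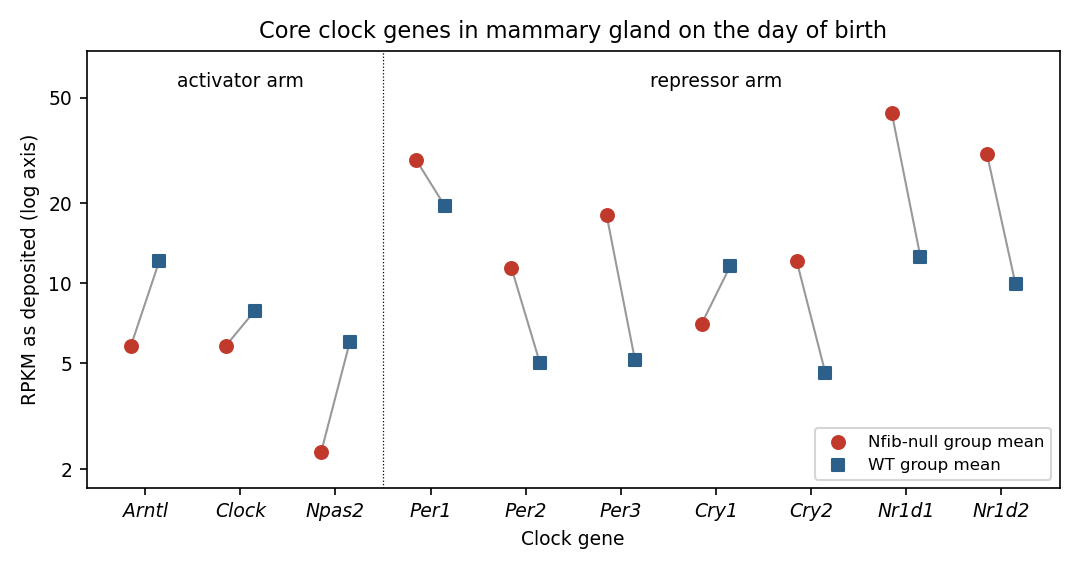
RPKM as deposited on a log axis for the 10 core clock genes, with the Nfib-null group mean as a circle and the WT group mean as a square, joined per gene. The Nfib-null mean is the lower one for Arntl, Clock, Npas2 and Cry1 and the higher one for the other 6 genes.

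Arntl, whose protein pairs with CLOCK or NPAS2, stood at 5.82 RPKM in Nfib-null glands, against 12.2 RPKM in WT glands. Its log2 difference was −1.32, and 3.33% of all genes kept had a lower one. Npas2, which can stand in for CLOCK, stood at 2.32 RPKM in Nfib-null glands and 5.99 RPKM in WT glands, a log2 difference of −1.39. It was the least abundant member in the Nfib-null column. Clock, whose protein is also an acetyltransferase, stood at 5.83 RPKM in Nfib-null glands and 7.86 RPKM in WT glands (log2 −0.73), within 2-fold. Among the partners of ARNTL, Clock thus made up 71.5% of the summed RPKM of Clock and Npas2 in the Nfib-null column and 56.8% in the WT column. With values as deposited the log2 difference of Arntl was −0.95, within 2-fold. With a pseudocount of 5 Arntl (−0.92) and Npas2 (−0.76) both came within 2-fold, and with scaling to luminal genes Clock passed it (−1.35).

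The REV-ERB genes stood together at the other end. Nr1d1 stood at 43.6 RPKM in Nfib-null glands and 12.6 RPKM in WT glands, a log2 difference of 1.32, the highest of the 10 members on this scale. With a pseudocount of 0.1 that of Nr1d1 was 1.37 and that of Per3, described next, was 1.40. Nr1d2 stood at 30.6 RPKM in Nfib-null glands and 9.93 RPKM in WT glands (log2 1.15). Their summed level was 74.2 RPKM in Nfib-null glands and 22.5 RPKM in WT glands, and Nr1d1 held a like share of it in both columns, 58.7% in the Nfib-null column and 55.9% in the WT column. Exons of Nr1d1 overlap those of Thra, a thyroid hormone receptor gene on the opposite strand, over 8.55% of its length, and the labels do not say whether reads were counted by strand. Thra itself stood at 23.4 RPKM in Nfib-null glands and 10.1 RPKM in WT glands. With scaling to luminal genes Nr1d1 (0.64) and Nr1d2 (0.47) came within 2-fold, as did Nr1d2 with a pseudocount of 5 (0.94).

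The 3 Per genes, whose proteins carry the delayed inhibition, differed by unequal amounts. Per3 stood at 18.1 RPKM in Nfib-null glands, against 5.13 RPKM in WT glands (log2 1.27). A pseudocount of 5 (0.93) and the luminal scaling (0.63) each brought it within 2-fold. Per2 stood at 11.4 RPKM in Nfib-null glands and 5.02 RPKM in WT glands (log2 0.69), and it passed 2-fold as deposited (1.05). Per1, which also answers to glucocorticoids and to cAMP signalling, stood at 29.1 RPKM in Nfib-null glands and 19.5 RPKM in WT glands. Its log2 difference of 0.16 lay at the 61.1 percentile of all genes, and with scaling to luminal genes it took the opposite sign (−0.53). Per3 made up 30.9% of the summed Per RPKM in Nfib-null glands and 17.3% in the WT column, while Per1 made up 49.6% in Nfib-null glands and 65.8% in WT glands.

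The Cry genes, whose proteins bind and silence the activators, differed in sign. Cry1 stood at 7.04 RPKM in Nfib-null glands and 11.6 RPKM in WT glands, and its log2 difference of −1.02 lay just past the limit. Cry2 stood at 12.1 RPKM in Nfib-null glands against 4.62 RPKM in WT glands (log2 0.86), within it. It passed the limit as deposited (1.22) and with equal sums (1.02). Cry1 was 36.8% of the summed Cry RPKM in Nfib-null glands and 71.5% in the WT column, so the more abundant of the pair was Cry2 in the Nfib-null column and Cry1 in the WT column. Their sum as deposited was 19.1 RPKM in Nfib-null glands and 16.2 RPKM in WT glands, while the median of their log2 differences was −0.08. Under 4 of 8 other settings, Cry1 came within 2-fold, with a log2 difference of −0.65 at the closest to 0.

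**Figure D3:**
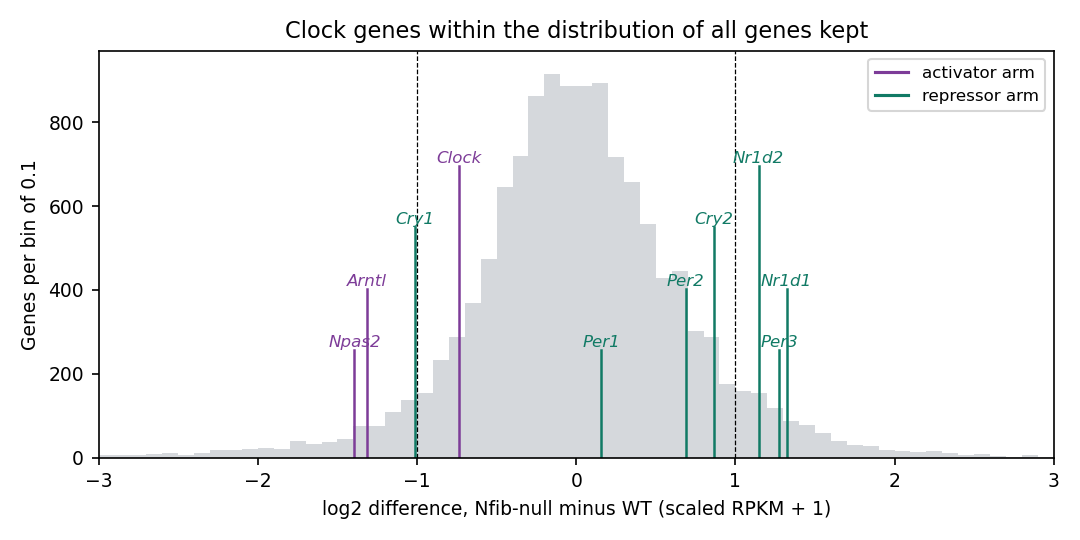
Number of genes per bin of 0.1 in the log2 difference (Nfib-null minus WT) for the genes kept, with the 10 clock genes drawn as lines in the colour of their arm and dashed lines at 2-fold. Line heights carry no value. Arntl, Npas2 and Cry1 lie beyond the lower limit and Nr1d2, Per3 and Nr1d1 beyond the upper one.

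The order of the levels, which RPKM allows between genes, also differed between the columns. In the Nfib-null column it ran Nr1d1, Nr1d2, Per1, Per3, Cry2, Per2, Cry1, Clock, Arntl and Npas2, so all 3 activators stood below all 7 repressors. In the WT column it ran Per1, Nr1d1, Arntl, Cry1, Nr1d2, Clock, Npas2, Per3, Per2 and Cry2. The highest member stood 18.8-fold above the lowest in the Nfib-null column and 4.23-fold in the WT column. Clock and Arntl in the Nfib-null column and Per3 and Per2 in the WT column were nearly level, and no spread is known by which to tell neighbours apart.

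A ratio of an activator to a repressor within 1 column does not change when that column is divided by 1 factor. A scaling by rank can change it. Of the 21 such pairs, the activator stood above the repressor in 0 pairs in the Nfib-null column and in 11 in the WT column. The log2 ratio was lower in the Nfib-null column in 20 of the 21 pairs, with a median change of −2.25, and at least 2-fold lower in 18. The pair of Arntl and Nr1d1, the activator and a repressor of its own gene, had a log2 ratio of −2.90 in the Nfib-null column and −0.05 in the WT column. Nr1d1 thus stood 7.49-fold above Arntl in the Nfib-null column and 1.03-fold above it in the WT column. The pair of Npas2 and Per3 changed most in RPKM without a pseudocount (−3.19), with a log2 ratio of −2.97 in the Nfib-null column and 0.22 in the WT column. With a pseudocount of 1 and with quantile normalization the pair of Npas2 and Nr1d1 changed most (−2.79 and −3.40). The 3 pairs with Cry1 changed least, by −0.35 with Arntl, 0.29 with Clock and −0.65 with Npas2. The 21 pairs share 10 genes and are not independent of each other.

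**Figure D4:**
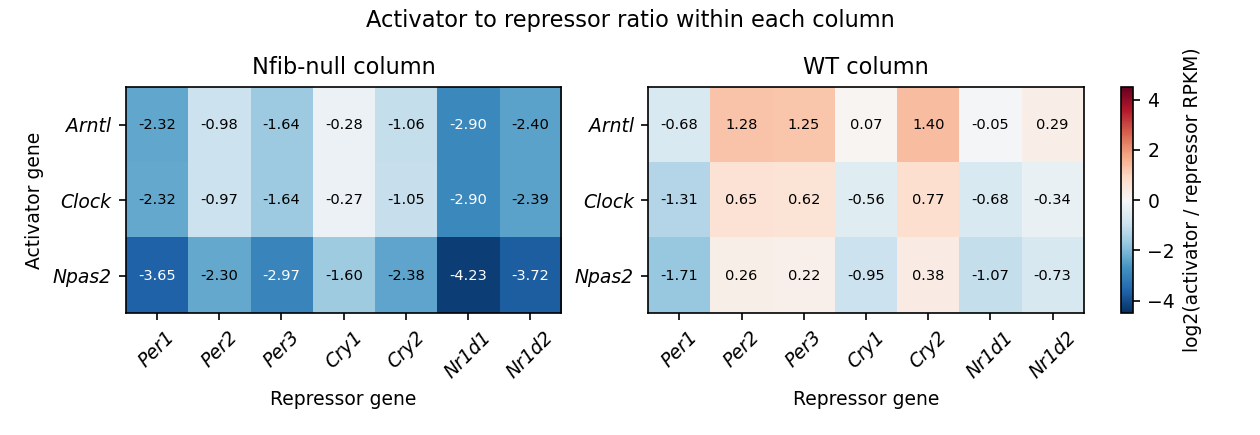
log2 ratio of each activator gene (rows) to each repressor gene (columns) in RPKM as deposited, for the Nfib-null column on the left and the WT column on the right. All 21 ratios are below 0 in the Nfib-null column, and 11 are above 0 in the WT column.

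Genes around the core loop were then read from 4 lists of clock-associated genes, which were chosen with earlier results of these data known. Of their 33 genes 31 passed the minimum mean, and 4 were higher, 3 lower and 24 within 2-fold, beside 6.95% and 5.97% of all genes.

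Dbp, which ARNTL pairs are known to drive through E-boxes, stood at 26.0 RPKM in Nfib-null glands and 3.40 RPKM in WT glands. Its log2 difference of 2.26 was higher than that of 99.6% of all genes and larger than that of any core member. Tef, the gene of a related D-box activator, stood at 29.1 RPKM in Nfib-null glands and 9.75 RPKM in WT glands (log2 1.10). Nfil3, the gene of the repressor at the same element, stood at 2.59 RPKM in Nfib-null glands and 5.58 RPKM in WT glands (log2 −1.20). The activators Dbp and Tef were thus higher and the repressor lower. The third activator of this family, Hlf, stood at 31.0 RPKM in Nfib-null glands and 40.0 RPKM in WT glands (log2 −0.76), within 2-fold and with the opposite sign. Exons of Dbp overlap those of Sphk2, a sphingosine kinase gene on the opposite strand, over 18.0% of its length. Sphk2 stood at 10.5 RPKM in Nfib-null glands and 9.36 RPKM in WT glands. Dbp, Rora and Prkaa2 stayed beyond 2-fold in all 8 other settings. With scaling to luminal genes Tef (0.42) came within 2-fold, and so did Bhlhe40 (0.68) and Bhlhe41 (0.98), which are described next, and as deposited Nfil3 did (−0.88). A pseudocount of 5 brought Tef (0.90) and Nfil3 (−0.66) within it.

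Rora, the gene of a ROR receptor, which activates Arntl at the element where NR1D1 represses it, stood at 3.10 RPKM in Nfib-null glands and 18.2 RPKM in WT glands, a log2 difference of −2.57, and 0.544% of all genes had a lower one. Rorb lay below the minimum in these glands, and Arntl2, a paralog of Arntl, stood at 7.54 RPKM in Nfib-null glands and 3.24 RPKM in WT glands (log2 0.67).

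Enzymes that modify clock proteins set the stability and activity of the loop. Of 12 of their kinase and ubiquitin pathway genes, 11 passed the minimum, with 0 higher, 1 lower and a median of −0.02, beside 6.95% higher and 5.97% lower among all genes. The lower one was Prkaa2, a catalytic subunit of the AMP-activated kinase, at 6.73 RPKM in Nfib-null glands and 45.3 RPKM in WT glands (log2 −2.96). Csnk1d, whose product phosphorylates PER proteins, stood at 43.4 RPKM in Nfib-null glands and 28.2 RPKM in WT glands (log2 0.21). Csnk2b, another casein kinase gene, stood at 84.0 RPKM in Nfib-null glands and 77.1 RPKM in WT glands (log2 −0.28). Of 14 other modulators 2 were higher and 0 lower, with a median of 0.01. Both higher ones encode repressors that compete at E-boxes. Bhlhe40 (DEC1) stood at 52.5 RPKM in Nfib-null glands and 14.7 RPKM in WT glands (log2 1.37). Bhlhe41 (DEC2) stood at 22.1 RPKM in Nfib-null glands and 4.78 RPKM in WT glands (log2 1.63), and its exons overlap those of Gm43909 on the opposite strand over 19.0% of its length. Nono and Hdac3, the most abundant of the rest, stood at 143 and 61.4 RPKM in Nfib-null glands, against 97.5 and 57.3 RPKM in WT glands. Their log2 differences were 0.14 and −0.31.

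**Figure D5:**
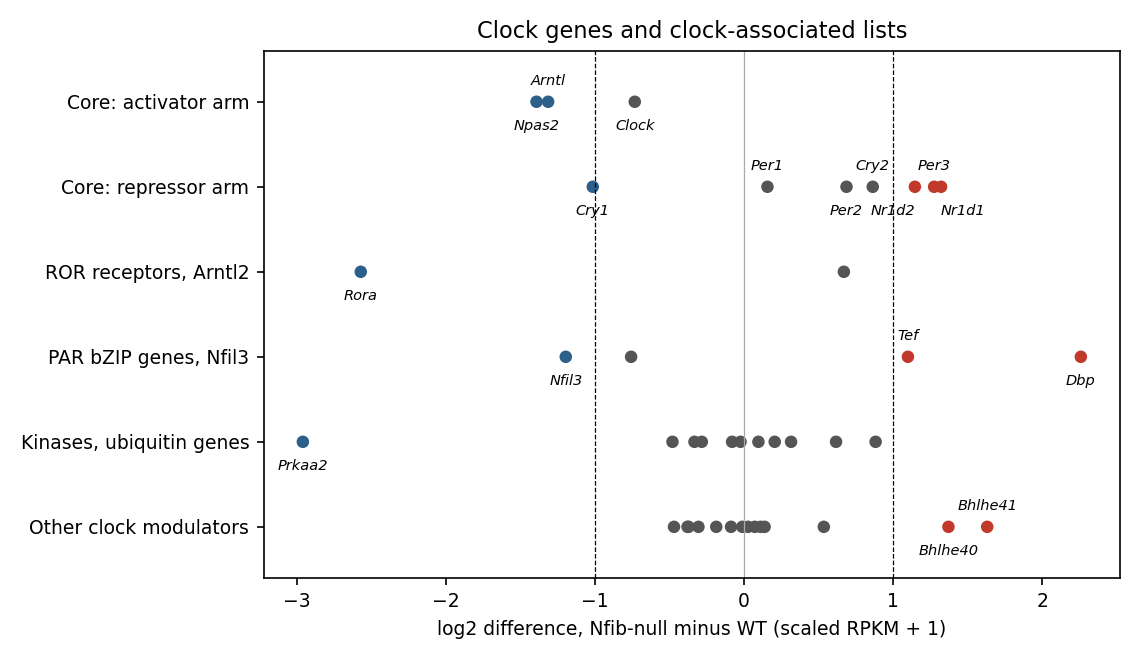
log2 difference (Nfib-null minus WT) of the core clock genes and of 4 lists of clock-associated genes, 1 point per gene above the minimum mean, with dashed lines at 2-fold. Core genes and genes beyond 2-fold are named. Dbp, Tef, Bhlhe40 and Bhlhe41 lie beyond the upper limit and Rora, Nfil3 and Prkaa2 beyond the lower one.

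Of 10 genes known to cycle in many mouse organs, 6 are core members and 4 are not. Among those 4, Dbp was higher, and Tspan4, a tetraspanin gene, stood at 37.8 RPKM in Nfib-null glands against 16.1 RPKM in WT glands (log2 0.78). The others, named after their values were seen, were Tsc22d3 and the ubiquitin protease gene Usp2. Tsc22d3 stood at 28.6 RPKM in Nfib-null glands and 15.8 RPKM in WT glands (log2 0.42). Usp2 stood at 6.09 RPKM in Nfib-null glands and 4.67 RPKM in WT glands (log2 −0.02).

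Per1 is also a target of glucocorticoid and of cAMP signalling, and other genes listed here as answering to such signals were read beside it. Of 9 such glucocorticoid genes outside the core 3 were higher and 0 lower, with a median log2 difference of 0.67. Among all genes 6.95% were higher and 5.97% lower. The chaperone partner Fkbp5 stood at 29.2 RPKM in Nfib-null glands and 9.97 RPKM in WT glands (log2 1.07). The phosphatase gene Dusp1 stood at 27.5 RPKM in Nfib-null glands and 7.22 RPKM in WT glands (log2 1.41). The kinase gene Pdk4, which fasting is known to raise, stood at 134 RPKM in Nfib-null glands and 6.87 RPKM in WT glands (log2 3.72). Sgk1, a kinase gene, and Klf9, which stood highest in mean among the rest, had log2 differences of −0.67 and 0.61. Among 8 genes outside the core listed as induced by cAMP and growth signals, 6 were higher and 0 lower. The same shares of all genes stand beside these counts. The median log2 difference of these 8 genes was 1.21. Fos stood at 63.6 RPKM in Nfib-null glands and 7.45 RPKM in WT glands (log2 2.55), and Egr1 at 37.4 RPKM in Nfib-null glands and 5.34 RPKM in WT glands (log2 2.22). Nr4a1, Sik1 and Icam1 had log2 differences of 1.28, 1.14 and 1.07. The sixth was Dusp1, which stands in both lists, and the genes within 2-fold were Crem (0.03) and Nr4a2 (−0.09). Per1, with 0.16, did not pass 2-fold with them. On the luminal scaling Pdk4, Fos and Egr1 stayed beyond 2-fold. Fkbp5 (0.40), Dusp1 (0.75), Nr4a1 (0.70), Sik1 (0.46) and Icam1 (0.46) came within it, and Sgk1 passed it on the lower side (−1.36). On that scaling 2 genes of the cAMP list were higher, beside 1.77% of all genes. A pseudocount of 5 brought Fkbp5 (0.88), Nr4a1 (0.75), Sik1 (0.95) and Icam1 (0.69) within 2-fold. This left 3 of the cAMP list higher, beside 2.77% of all genes.

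Markers of several cell types in the gland also differed between the columns, and their part in the clock gene differences was not tested. Counts without a named setting stand beside 6.95% higher and 5.97% lower among all genes. On the luminal scaling these shares were 1.77% and 24.9%, and as deposited 14.4% and 2.95%. With a pseudocount of 5 they were 2.77% and 3.55%, and with quantile normalization 6.56% and 5.56%. In these whole glands, fewer cells of a type and less RNA per cell cannot be told apart. Of 10 white adipocyte genes 10 were higher, with a summed level of 10432 RPKM in Nfib-null glands and 2145 RPKM in WT glands, and so were 8 of 8 fibroblast and matrix genes (1671 RPKM in Nfib-null glands, 448 RPKM in WT glands) and 7 of 8 macrophage genes (446 RPKM in Nfib-null glands, 130 RPKM in WT glands). With scaling to luminal genes 8 adipocyte, 2 fibroblast and 0 macrophage genes were higher, and with a pseudocount of 5 there were 4 macrophage genes. All 8 milk protein genes were lower, with 143839.9 RPKM in Nfib-null glands against 585437 RPKM in WT glands. In the WT column Wap and Glycam1 had the same value, 102755 RPKM. Quantile normalization makes the top values of the columns equal by construction. With it 3 of the 8 were lower, and the casein gene Csn1s1 took the opposite sign (0.75). Of 14 luminal genes 4 were higher and 1 lower (2302 RPKM in Nfib-null glands, 1652 RPKM in WT glands), and as deposited 9 were higher. The 8 myoepithelial and 6 endothelial genes all lay within 2-fold, although as deposited 2 endothelial genes were higher and on the luminal scaling 1 myoepithelial gene was lower. Of 6 lymphocyte genes 4 were lower (12.5 RPKM in Nfib-null glands, 23.8 RPKM in WT glands), against 0 with a pseudocount of 5 and 6 on the luminal scaling. None of these markers was at 0 in either column.

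The smallest steps between low values corresponded to about 33800000 and 27100000 reads in the Nfib-null column. In the WT column they corresponded to about 17800000 and 14800000 reads. The number of steps was set to 2 for both columns, so these values do not show whether the Nfib-null column held a further step. That each step stands for the depth of a library was assumed. Reads per member were then estimated on exon lengths of GRCm38, with only the 2 steps given above counted for the Nfib-null column. The members would rest on between about 677 reads (Npas2) and 10620 reads (Per3) in the Nfib-null column. In the WT column they would rest on between about 935 (Npas2) and 3587 (Per1). Counting error at such numbers is at most 3.84% of a value, and it leaves out the spread between animals, which the table does not hold. In the WT column 8 of the 489 genes at 100 RPKM or more shared their exact value with another gene, as a rank-based scaling can give, and 0 of 544 in the Nfib-null column did. If such a scaling was applied, the depths given for that column would not hold.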

How the data were processed

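Poly(A) RNA of mammary glands was sequenced with the TruSeq kit, per the labels' protocols. The submitters' processing notes list CASAVA, TopHat and the build mm9. How reads were counted, on which annotation and with which strand setting, is not given in the sources used here. The authors deposited RPKM as 1 mean per group, per the file headers. A test per library, foreseen only if values per library were given, could therefore not be run. Columns were divided by median-ratio factors (1.15 for Nfib-null, 0.867 for WT) set on genes whose mean reached 1 RPKM, weighted by 3 and 2 libraries. Differences are of log2(scaled RPKM + 1), called from 2-fold, with Python 3.11.15 and pandas 2.3.3, tested on simulated data. The members and lists were chosen with earlier results of these data known. All 10 members were named, and of each clock-associated list the genes beyond 2-fold and the 2 of highest mean among the rest. A listed gene that is not reported here was left out of these lists. Older symbols were matched through RefSeq synonyms. Exon lengths and overlaps came from GENCODE M21 and promoters from RefSeq, both on GRCm38, used without coordinates of the mm9 files. The alternatives were other scalings, pseudocounts (0.1 and 5), minimum means (none and 5 RPKM) and fold limits (1.5 and 4).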

Additional observations from a re-analysis of the deposited data

How the results depend on the processing

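The depth and the number of libraries set no error here, since 1 mean per group was used, and so leaving out libraries could not be run. No paired analysis was possible because the columns are group means and carry no replicate number. Arntl, Clock and Cry1 were lower in sign in the Nfib-null column in all 9 settings and Npas2 in the 8 that kept it, Per2, Per3, Cry2, Nr1d1 and Nr1d2 were higher in sign in all 9, and Per1 was so in 8. Of 79 values of members under other settings 63 kept their side of 2-fold and 16 crossed it, with no change of sign among members called. The settings act by construction on the 2-fold limit. As deposited 5 members were higher and 1 lower, beside 14.4% and 2.95% of all genes. On the luminal scaling 0 were higher and 4 lower, beside 1.77% and 24.9%. At pseudocount 5 the counts were 1 higher and 0 lower, beside 2.77% and 3.55%. A minimum mean of 5 RPKM, which removed Npas2, left 3 higher and 1 lower, beside 8.3% and 6.02%. With a limit of 1.5 there were 5 higher and 4 lower, beside 17.1% and 14.7%. A limit of 4 left 0 in both directions, beside 0.727% and 1.23%. The activator median was −0.95 as deposited, −0.76 with a pseudocount of 5 and −0.97 with a minimum of 5 RPKM, and the repressor median was 1.22 as deposited, 1.02 with equal sums, 0.59 with a pseudocount of 5 and 0.23 on the luminal scaling. The median change over the 21 activator to repressor pairs was −2.02 with a pseudocount of 1 and −2.29 with quantile normalization. Among the 31 genes of the clock-associated lists the 4 higher ones became 1 with scaling to luminal genes, beside 1.77% of all genes. On that scaling 9 were lower in place of 3, beside 24.9% of all genes. With a limit of 1.5 there were 7 higher, beside 17.1%, and with a limit of 4 there was 1, beside 0.727%. Of all genes, 869 were higher and 747 lower, which became 1800 and 369 as deposited, 222 and 3117 on the luminal scaling, 346 and 444 at pseudocount 5, 2145 and 1833 with a limit of 1.5, and 91 and 154 with a limit of 4, and 1313 were higher with a pseudocount of 0.1.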
